A study of Mus musculus with 30 samples.

Results

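Olfr1507, Olfr1508, Olfr1509, Olfr1510, Olfr1511, Olfr1512 and Olfr1513 are the 7 odorant receptor (OR) genes that the study's OR naming table marks with H on chromosome 14. They are all of the genes with that mark there, and all 7 have probes in the table of 564 OR genes and values in all lanes. The names of the table put Olfr1507 (MOR244-1), Olfr1508 (MOR244-2, also MOR10) and Olfr1509 (MOR244-3) in the MOR244 subfamily, and Olfr1510 (MOR223-6), Olfr1511 (MOR223-9), Olfr1512 (MOR223-5) and Olfr1513 (MOR223-10) in the MOR223 subfamily. In its gene order the MOR244 genes and the MOR223 genes form 2 adjacent blocks, with Olfr49 next to Olfr1507 at one end and Olfr221 next to Olfr1513 at the other.

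The data are NanoString counts from whole olfactory mucosa of 30 mice in 5 groups of 6, each mouse 21 days old and assayed in its own lane with 1 µg of RNA. The ΔP (Berry) x ΔH mice are double homozygous for deletions of the P element and the H element, on a mixed C57BL/6J x 129SvEv background, and shared cartridge MK29 with wild-type mice of their companion strain. A second wild-type group of the same mixed background, the companion strain of ΔH, was on cartridge MK37. The ΔOlfr7Δ mice are homozygous, on an inbred 129SvEv background, for a deletion of an OR cluster on another chromosome that holds none of the 7 genes, and shared cartridge MK38 with wild-type 129SvEvTac mice of background 129S6/SvEvTac. The label of these wild-type mice names Charles River Laboratories, Germany, and does not call them a companion strain. Any difference of supplier or colony thus cannot be told apart from the Olfr7 cluster deletion. No group here lacks the H element alone, so effects of the H and P deletions cannot be told apart by group. Wild-type mice filled the first 6 lanes of MK29 and of MK38, and mutants the last 6, so genotype cannot be told apart from place on the cartridge. The ΔP (Berry) x ΔH group holds 1 female and 5 males, while females number 3 in the wild-type group of MK29, 4 each in the wild-type groups of MK37 and MK38 and 2 in the ΔOlfr7Δ group.

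An OR is a G protein-coupled receptor of the olfactory sensory neuron, and a mature neuron expresses 1 OR gene from 1 of its alleles. The H element is an enhancer, a non-coding stretch that lies beyond Olfr1507 and acts on OR genes of the same chromosome copy. The P element is an enhancer of the same kind on chromosome 7, by a cluster of other OR genes. In RNA of the whole mucosa the count of an OR gene follows both the number of neurons that chose it and the RNA of each such neuron, and fewer cells cannot be told apart from less RNA per cell. No probe reads the H element, so the deletion itself was not measured.

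Each gene is read by 1 pair of probes of 50 bases, a capture probe and a reporter probe that must bind side by side on the same RNA, and the barcode on the reporter is counted without amplification. Probes differ in efficiency, so the level of 1 gene was not set against that of another. The probes of Olfr1512 and Olfr1513 are shown because they are near copies of each other, with capitals at the bases that differ between the genes, in the letters and direction of the deposited table.
Olfr1512 capture: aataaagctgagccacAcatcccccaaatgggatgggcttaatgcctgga
Olfr1513 capture: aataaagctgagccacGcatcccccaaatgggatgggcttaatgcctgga
Olfr1512 reporter: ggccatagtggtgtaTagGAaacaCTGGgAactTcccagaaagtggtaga
Olfr1513 reporter: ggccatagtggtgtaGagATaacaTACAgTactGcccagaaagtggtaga

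The capture probes of this pair differ at 1 base, G17A from Olfr1513 to Olfr1512, counted from 1 at the first base printed. The reporter probes differ at 9 of 50 bases. Counts of Olfr1512 and Olfr1513 can therefore hold reads of each other, and how much was not tested. The only other close match among the probes of the 7 genes and those of the other OR genes, taken as at least 40 matching bases, is between the reporter probe of Olfr1507 and the capture probe of Olfr1508, which match at 41 of 48 aligned bases. They are shown with capitals at the mismatches, because the counts of these genes went up and down together between mice.
Olfr1507 reporter: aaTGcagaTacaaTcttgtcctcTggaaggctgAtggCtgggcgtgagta
Olfr1508 capture: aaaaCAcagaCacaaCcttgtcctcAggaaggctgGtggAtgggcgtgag

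The remaining probes of this pair do not come near each other. The capture probe of Olfr1507 matched no other OR probe at more than 28 bases, and the reporter probe of Olfr1508 none at more than 36.

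Levels are given as scaled counts, the raw count after each lane was scaled by its 6 positive controls and then by 5 genes of mature olfactory sensory neurons. These are Omp, Adcy3, Gnal, Cnga2 and Ano2, the last 4 of which encode parts of the odorant transduction cascade. The background of a lane is the mean plus 2 SD of its 8 negative controls, and it lay between 32.4 and 56.2 scaled counts over all lanes. The raw OR counts of a lane added up to between 616182 and 1010264. With scaling on the positive controls alone, the 5 neuron genes together differed by 0.04 on the log2 scale between ΔP (Berry) x ΔH and mixed wild-type mice, and by 0.18 between ΔOlfr7Δ and wild-type 129SvEvTac mice. Of all OR counts, the 7 genes held 2.95% (median) on MK29 and 2.53% on MK37 in the mixed wild-type mice, 1.81% in wild-type 129SvEvTac mice and 1.99% in ΔOlfr7Δ mice. In ΔP (Berry) x ΔH mice the median share was 0.287%, with a range of 0.240% to 0.308%. The lowest share in any other mouse was 1.70%.

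**Figure D1:**
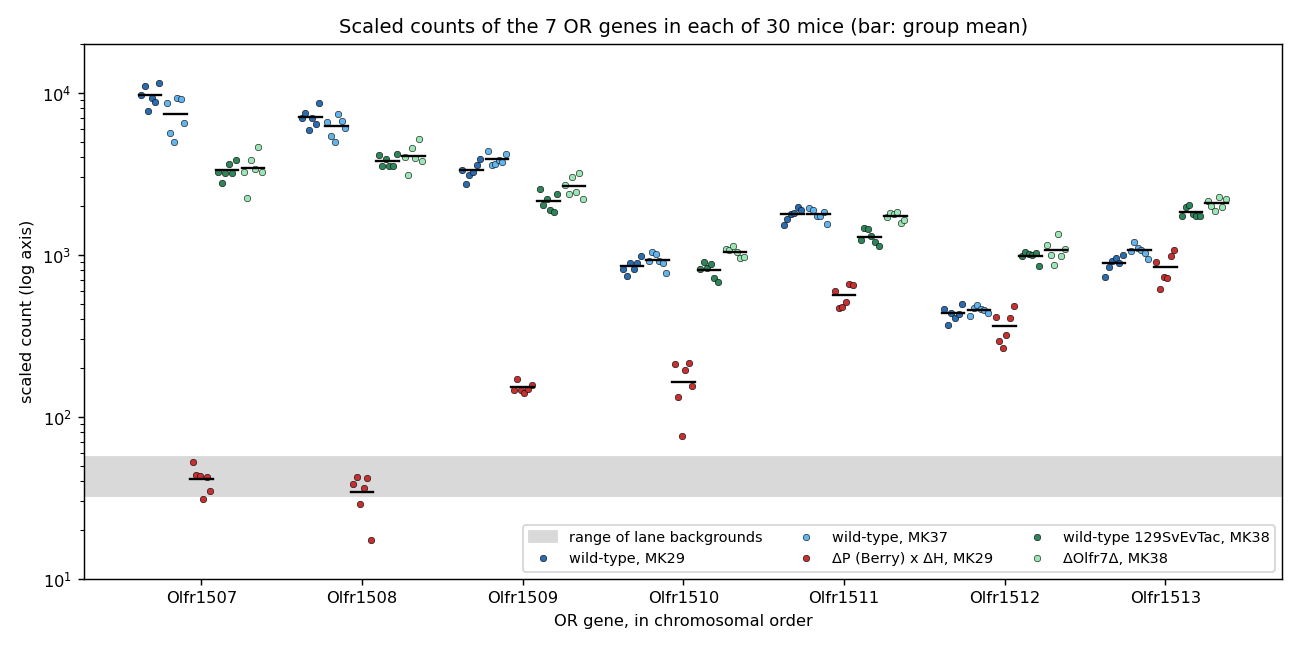
Scaled counts (log axis) of the 7 OR genes in chromosomal order, 1 point per mouse, 6 mice per group, with a bar at each group mean and the range of the lane backgrounds in grey. The ΔP (Berry) x ΔH points of Olfr1507 and Olfr1508 lie in or below the grey band, those of Olfr1509, Olfr1510 and Olfr1511 lie above it and below every other mouse, and those of Olfr1512 and Olfr1513 overlap the mixed wild-type mice.

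The comparison of ΔP (Berry) x ΔH mice with the 12 mixed wild-type mice asks how far the level of each gene differs in mice that carry both deletions. All 3 MOR244 genes fell, by the largest amounts, and of the MOR223 genes Olfr1510, Olfr1511 and Olfr1512 fell by less. Of the 7 genes, 6 were lower and none higher at an adjusted p under 0.05 in limma, and Olfr1513 did not pass. Over all 557 OR genes tested, 23.9% were lower and 10.2% higher, 34.1% in all. The share of higher genes among those called was 30%, and 41.7%, 47.9% and 54.4% with scaling on the positive controls alone, TMM and the median of ratios. The median log2 change was -2.50 over the 7 genes and -0.06 over all genes.

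Olfr1507 was counted at 4995, 8916 and 11467 (lowest, median and highest of the scaled counts) in the 12 mixed wild-type mice. In the 6 mutants its scaled counts were 52.8, 44.0, 42.8, 31, 42.6 and 34.7, from raw counts of 28 to 51. All mutants were far below every wild-type mouse, and 4 of them lay above the background of their lane, the widest gap being 42.8 against 36.6. The log2 change was -7.63 ± 0.15 (SE; adjusted p = 9.4e-21, limma). With each lane at or under its background set to that background, the mean level of the wild-type mice was at least 197-fold higher.

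Olfr1508 was counted at 4991, 6667 and 8667 in the mixed wild-type mice. The 6 mutants had 38.3, 42.2, 29.1, 36.5, 41.6 and 17.3 scaled counts, none above the background of its lane. The groups did not overlap, and the log2 change was -7.60 ± 0.15 (adjusted p = 4.6e-21). Because the mutants were at background, this value depends on the counts of the background and is no measure of the RNA left. The wild-type mean was at least 159-fold higher.

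Olfr1509 was counted at 2753, 3595 and 4364 in the mixed wild-type mice and at 140, 148 and 172 in the mutants. All 6 mutants were above the background of their lane, which sets Olfr1509 apart from the other MOR244 genes. Its log2 change was -4.55 ± 0.08 (adjusted p = 2.2e-21), a 23.7-fold lower mean, with 4.22% of the wild-type mean left. These counts include background, and after the study's normalization, which subtracts it, the log2 change was -5.01. The SD of log2 levels between mutants, 0.10, was below the median of 0.18 over all OR genes in these mice.

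Olfr1510, the MOR223 gene next to Olfr1509, was counted at 743, 891 and 1038 in the mixed wild-type mice. The mutants had 212, 133, 76.5, 194, 214 and 155 scaled counts. The groups were clearly apart, but the mutants varied: the SD of their log2 levels was 0.56, against 0.15 in the mixed wild-type mice. The log2 change was -2.50 ± 0.16 (adjusted p = 2.0e-11), a 5.42-fold lower mean, with background included. After the study's normalization, which subtracts the background, it was -2.93.

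Olfr1511 was counted at 1535, 1802 and 1967 in the mixed wild-type mice and at 470, 553 and 657 in the mutants. The groups did not overlap, and 31.5% of the wild-type mean was left. The log2 change was -1.67 ± 0.08 (adjusted p = 1.1e-13), and -1.75 after the study's normalization, which subtracts the background.

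Olfr1512 was counted at 369, 447 and 496 in the mixed wild-type mice and at 266, 362 and 481 in the mutants. The groups overlapped. Its log2 change of -0.32 ± 0.11 passed in limma (adjusted p = 0.0248), but it did not pass against the wild-type mice of the same cartridge alone (-0.28, adjusted p = 0.134), nor with scaling on the positive controls alone (-0.28, adjusted p = 0.0775). Nor did it pass without mutant 2, 3 or 4, where adjusted p was 0.0753, 0.0842 and 0.0616.

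Olfr1513 was counted at 727, 982 and 1194 in the mixed wild-type mice and at 613, 820 and 1074 in the mutants. The groups overlapped over most of their range, and the log2 change of -0.24 did not pass (95% interval -0.47 to -0.00384, adjusted p = 0.106). Against the wild-type mice of MK37 alone it was -0.37 and passed (adjusted p = 0.0227). Against those of MK29 alone it was -0.11 and did not pass (adjusted p = 0.593). Without wild-type mouse 1 of MK29 or without mutant 6 it passed too, with adjusted p of 0.0485 and 0.0341.

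In all, the mutants did not overlap the mixed wild-type mice in Olfr1507, Olfr1508, Olfr1509, Olfr1510 and Olfr1511, against 9.16% of all OR genes tested. Among the 557 log2 changes, counted from the lowest, Olfr1509, Olfr1510 and Olfr1511 stood at places 6, 9 and 14, Olfr1512 at 90 and Olfr1513 at 141. No place is given for Olfr1507 and Olfr1508, whose values rest on the background. With tTREAT, the study's own test against a threshold, the same 5 genes passed at a fold of 1.5 and p of 0.01, and Olfr1512 and Olfr1513 did not. That test called 22 OR genes lower and 1 higher in all.

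The size of the fall was then compared between neighbours, within each lane, so that the scaling of lanes cancels. Between neighbours among the 7 genes, 4 of 6 ratios changed, against 35.2% of the 540 pairs of neighbouring OR genes tested. The median ratio of Olfr1507 to Olfr1508 was 1.34 on MK29 and 1.16 on MK37 among wild-type mice, and 1.21 among mutants. It did not change at this threshold (log2 difference -0.03, adjusted p = 0.882). Among mutants, Olfr1508 was never above the background of its lane, and Olfr1507 was slightly above it in 4. Their ratio there holds little about the RNA. With the background subtracted, the difference was -1.54 (adjusted p = 0.0258), a value set by how lanes under their background are filled.

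The ratios further along changed as far as Olfr1512. Olfr1508 fell more than Olfr1509, by a log2 difference of -3.05 (adjusted p = 1.2e-11). The median ratio of the pair was 2.13 in the wild-type mice of MK29, 1.51 in those of MK37 and 0.253 in the mutants. No mutant had Olfr1508 above the background of its lane, so the size of this step rests on the background. It was -3.26 and -2.30 in the 2 alternatives run. Olfr1509 fell more than Olfr1510 (-2.05, adjusted p = 1.1e-08). Olfr1510 in turn fell more than Olfr1511 (-0.83, adjusted p = 8.4e-05), and Olfr1511 more than Olfr1512 (-1.35, adjusted p = 9.0e-11). The ratio of Olfr1512 to Olfr1513 was not shown to change (-0.08, adjusted p = 0.507), with a median of 0.478 for wild-type MK29, 0.441 for wild-type MK37 and 0.445 for mutant mice.

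The genes at the ends of the run fell too. Olfr49, next to Olfr1507, was counted at 1713, 2029 and 2597 in the mixed wild-type mice and at 823, 1062 and 1355 in the mutants, with no overlap and a log2 change of -0.96 (adjusted p = 6.8e-08). The step from Olfr49 to Olfr1507 was the steepest of the run, a log2 difference of 6.67 (adjusted p = 4.0e-18). Its size rests on the background, near which Olfr1507 lay in the mutants, and was 6.91 and 7.87 in the 2 alternatives run. Olfr221, next to Olfr1513, had a log2 change of -0.75 (adjusted p = 0.00598), but its 2 wild-type groups differed from each other. Its mean was 432 in the wild-type mice of MK29, 268 in those of MK37 and 207 in the mutants. The ratio of Olfr1513 to Olfr221 was not shown to change against both groups together (0.51, adjusted p = 0.0806), and it changed against the wild-type mice of MK29 alone (0.98, adjusted p = 0.000210) and without wild-type mouse 3 of MK37 (0.59, adjusted p = 0.0337).

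Of the 19 other OR genes with probes on chromosome 14, 13 were lower, 4 were higher and 2 did not pass, with a median log2 change of -0.62. For the cluster by the P element, 17 of the 22 genes tested were lower and 1 was higher, with a median of -0.65. The MOR244 genes had a median of -7.60, a value that rests on the background, and the MOR223 genes of -0.996. Olfr1512 and Olfr1513, with -0.32 and -0.24, were thus nearer to 0 than the median of the genes elsewhere on the chromosome, and nearer than either flanking gene. For Olfr221 this order was not shown, as its ratio with Olfr1513 did not pass against both wild-type groups together. Whether Olfr1512 or Olfr1513 differed from those genes was not tested beyond the neighbouring pairs.

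**Figure D2:**
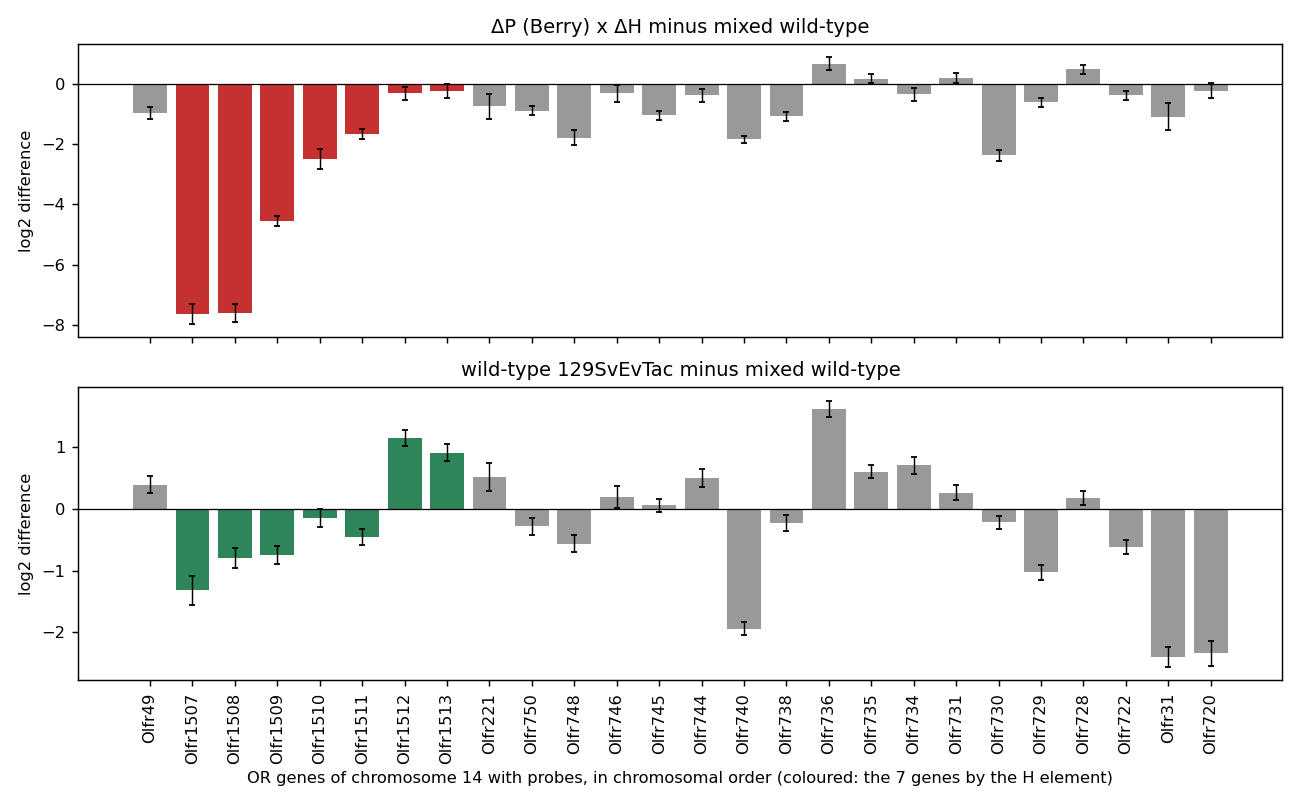
Log2 differences of the 26 OR genes of chromosome 14 with probes, in chromosomal order, with 95% limma intervals, for ΔP (Berry) x ΔH minus mixed wild-type mice (top) and wild-type 129SvEvTac minus mixed wild-type mice (bottom), the 7 genes coloured. The top panel shows the step from Olfr49 (-0.96) to Olfr1507 (-7.63) and the return toward 0 by Olfr1513 (-0.24), and the bottom panel the change of sign between Olfr1511 (-0.46) and Olfr1512 (1.15).

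RefSeq promoter entries (GRCm38.p6) matched 5 of the 7 genes by symbol, and those of Olfr1511 and Olfr1513 begin at a start codon, so the bases before them need not be a promoter. The 250 bases before the start of the 3 others are shown, because 2 of these genes fell most among those with an entry and the third fell to a middle level. Capitals mark the motifs searched, on both strands. They are the homeodomain core TAATTA with its variants TAATTG and also TAATGA, the O/E core CCCNNGGG, and the TATA box spelled TATAAA. The entry of Olfr1508 is chr14:52467462-52467711 (minus strand), that of Olfr1509 chr14:52450143-52450392 (plus strand) and that of Olfr1510 chr14:52410928-52411177 (minus strand).
Olfr1508: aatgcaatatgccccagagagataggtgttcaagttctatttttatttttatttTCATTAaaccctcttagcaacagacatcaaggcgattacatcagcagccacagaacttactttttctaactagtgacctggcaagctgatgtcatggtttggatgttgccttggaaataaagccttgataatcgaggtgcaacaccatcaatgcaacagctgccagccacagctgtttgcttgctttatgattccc
Olfr1509: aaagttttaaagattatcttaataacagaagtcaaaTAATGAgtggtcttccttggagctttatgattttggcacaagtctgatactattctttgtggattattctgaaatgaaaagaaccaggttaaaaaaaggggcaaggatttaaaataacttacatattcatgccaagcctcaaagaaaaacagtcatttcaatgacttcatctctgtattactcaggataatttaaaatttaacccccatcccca
Olfr1510: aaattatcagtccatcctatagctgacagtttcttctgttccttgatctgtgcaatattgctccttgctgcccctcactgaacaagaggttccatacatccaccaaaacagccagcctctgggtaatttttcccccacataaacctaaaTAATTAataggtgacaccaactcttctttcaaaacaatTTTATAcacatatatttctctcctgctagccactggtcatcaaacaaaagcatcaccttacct

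The windows of Olfr1508 and Olfr1509 each hold 1 match to TAATGA, at -196 and -214 bases from the start. This core is present in 25.3% of the 478 OR promoter entries matched and in 8.58% of all promoter entries. All shares given here were taken without leaving out entries that begin at a start codon. Olfr1510 holds 1 TAATTA, at -101, present in 17.4% of the OR promoters and 4.85% of all. It also holds 1 match to TATAAA, at -63, on the strand opposite to the gene (TTTATA as printed). On either strand, this motif is present in 36.2% of the OR promoters and 12.4% of all. Neither TAATTG (21.8% of the OR promoters and 7.17% of all) nor CCCNNGGG (2.30% and 11.8%) matched in the 3 windows. The windows are described as letters only, and binding was not measured.

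The ΔOlfr7Δ mice ask what happens to the 7 genes in mutants whose H element is intact. Any difference of colony, and place on the cartridge, cannot be told apart from the deletion in this comparison. None of the 7 was lower than in wild-type 129SvEvTac mice, and 4 were higher, against 12.1% lower and 23.4% higher of the 552 OR genes tested. The share of higher genes was thus above that over all genes, among which the median log2 change was 0.06. The calls depend on the scaling. With the median of ratios over the OR genes, 2 of the 7 genes and 19.6% of all OR genes tested were higher. With the positive controls alone, 5 of the 7 genes and 51.3% of all were higher. Higher genes made up 65.8% of those called, 87.3% with positive controls alone and 51.4% with the median of ratios.

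Olfr1511 rose most, from 1128, 1269 and 1473 scaled counts (lowest, median and highest) in the wild-type mice to 1571, 1753 and 1849 in the mutants. The groups did not overlap, which was so for 18.3% of all genes, and the log2 change was 0.42 ± 0.07 (adjusted p = 2.9e-05). Olfr1510 rose from 681, 818 and 908 to 958, 1057 and 1135, again with no overlap (0.39 ± 0.08, adjusted p = 0.000186).

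Olfr1509, with means of 2145 and 2650, rose by 0.30 (adjusted p = 0.00695) with overlapping groups. That call was lost with TMM scaling (adjusted p = 0.0601), with the median of ratios (adjusted p = 0.0848) and in the gene-wise linear model (adjusted p = 0.0643). Olfr1513, with means of 1833 and 2082, rose by 0.18 (adjusted p = 0.0323). It was lost with the median of ratios (adjusted p = 0.0595) and when any 1 of 7 mice was left out: wild-type mice 1, 4, 5 and 6 and mutants 1, 4 and 6, with adjusted p up to 0.0785. Olfr1507 (0.02, 95% interval -0.20 to 0.24), Olfr1508 (0.10, -0.08 to 0.27) and Olfr1512 (0.10, -0.07 to 0.27) did not pass. With scaling on the positive controls alone, Olfr1512 passed (0.28, adjusted p = 0.0108).

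The change in ΔP (Berry) x ΔH mice was tested against the change in ΔOlfr7Δ mice directly, each taken within its own cartridge. Of the 7 genes, 5 had a lower change in ΔP (Berry) x ΔH mice, against 22% of the 549 OR genes tested, with 34.6% called in either direction. Higher genes made up 36.3% of these, 25.1% with positive controls alone and 48.0% with the median of ratios. The differences were -7.86 for Olfr1507, -7.79 for Olfr1508, -4.74 for Olfr1509, -2.83 for Olfr1510 and -2.09 for Olfr1511, with adjusted p of 3.7e-14 or lower. The sizes for Olfr1507 and Olfr1508 rest on the background in ΔP (Berry) x ΔH mice. They ran from -9.09 to -7.58 and from -7.89 to -7.44 over the alternatives. Olfr1512 (-0.39, adjusted p = 0.0535) and Olfr1513 (-0.29, adjusted p = 0.106) did not pass. Olfr1512 passed with scaling on the positive controls (adjusted p = 0.0159), TMM (0.0263) or the median of ratios (0.0486), and in 6 of 30 fits that left out 1 mouse. Olfr1513 passed with scaling on the positive controls (adjusted p = 0.0351) and without wild-type mouse 1 of MK29 or ΔP (Berry) x ΔH mouse 6 (0.0456 and 0.0239).

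The 12 mixed wild-type mice come from 2 companion strains on different cartridges, which cannot be told apart. Between them 1 of the 7 genes was lower in the mice of MK37 and 2 were higher, against 10.8% lower and 29.3% higher of 557 OR genes, whose median was 0.10. Higher genes made up 73.1% of those called, 87.1% with positive controls alone, 48.6% with TMM and 44.4% with the median of ratios. Olfr1507 was lower, with means of 7355 ± 1887 (SD, n = 6) against 9649 ± 1392, a log2 difference of -0.42 (adjusted p = 0.0263, limma). Olfr1513 was higher (0.26, adjusted p = 0.0162), and so was Olfr1509 (0.23, adjusted p = 0.0248). With the median of ratios Olfr1513 lost its call (0.15, adjusted p = 0.0745). Olfr1508 had the same sign as Olfr1507 and did not pass (-0.19, adjusted p = 0.129). It passed with TMM (-0.29, adjusted p = 0.0458) and with the median of ratios (-0.30, adjusted p = 0.0371). The groups overlapped in all 7 genes, while 20.1% of OR genes did not overlap. No call of Olfr1507 was made with scaling on the positive controls alone (adjusted p = 0.0805), in the gene-wise linear model (0.0891), or without any 1 of wild-type mice 2 and 6 of MK29 and 2, 3 and 6 of MK37 (adjusted p up to 0.0617). Olfr1509 lost its call with TMM, the median of ratios or the gene-wise linear model, and without mouse 2 or 3 of MK29 or 1 or 6 of MK37.

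The 7 genes split by strain background. In wild-type 129SvEvTac mice all 3 MOR244 genes and Olfr1511 were lower than in mixed wild-type mice, and Olfr1512 and Olfr1513 were higher, while Olfr1510 did not pass. That is 4 lower and 2 higher of 7, where 39.7% of 549 OR genes were lower and 37.3% higher, 77% in all. Differences of this kind were thus the rule among OR genes, and background and cartridge cannot be told apart. The same mixed wild-type mice serve here, between the companion strains and against the ΔP (Berry) x ΔH mice, and the same 129SvEvTac mice serve as controls of ΔOlfr7Δ.

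Olfr1507 was counted at 2787, 3223 and 3851 in the 129SvEvTac mice, all below the lowest mixed wild-type mouse (4995). The log2 difference was -1.32 ± 0.11 (adjusted p = 1.1e-10). Olfr1508 differed by -0.79 (a mean of 3800, against 7080 for wild-type MK29 and 6200 for wild-type MK37 mice) and Olfr1509 by -0.75 (2145 against 3320 and 3887). Olfr1511 differed by -0.46 (1295 against 1774 and 1781).

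Olfr1512 went the other way, with 858, 1010 and 1040 scaled counts against a highest mixed wild-type value of 496. Its log2 difference was 1.15 ± 0.06 (adjusted p = 4.6e-14), place 13 of 549 from the highest. Olfr1513 was counted at 1733, 1763 and 2038, above the highest mixed wild-type mouse (1194), with a difference of 0.92 ± 0.06 (adjusted p = 3.8e-12). Both genes were also high in the ΔOlfr7Δ mice, of the same background and cartridge, at 869 to 1339 and 1875 to 2288. These are the genes whose probes are near copies.

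The 6 genes called did not overlap between the backgrounds. Over all 549 OR genes tested, called or not, 38.3% did not overlap. Olfr1510, the only member not called, overlapped, with a difference of -0.15 (95% interval -0.30 to 0.000764, adjusted p = 0.0643). It passed with scaling on the positive controls (-0.21, adjusted p = 0.0177), with TMM (-0.13, adjusted p = 0.0330), with sex as a covariate (-0.16, adjusted p = 0.0214) and against the mice of MK37 alone (-0.21, adjusted p = 0.0327). It also passed without mouse 2 of MK29, 6 of MK37 or 2 or 4 of the 129SvEvTac mice.

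**Figure D3:**
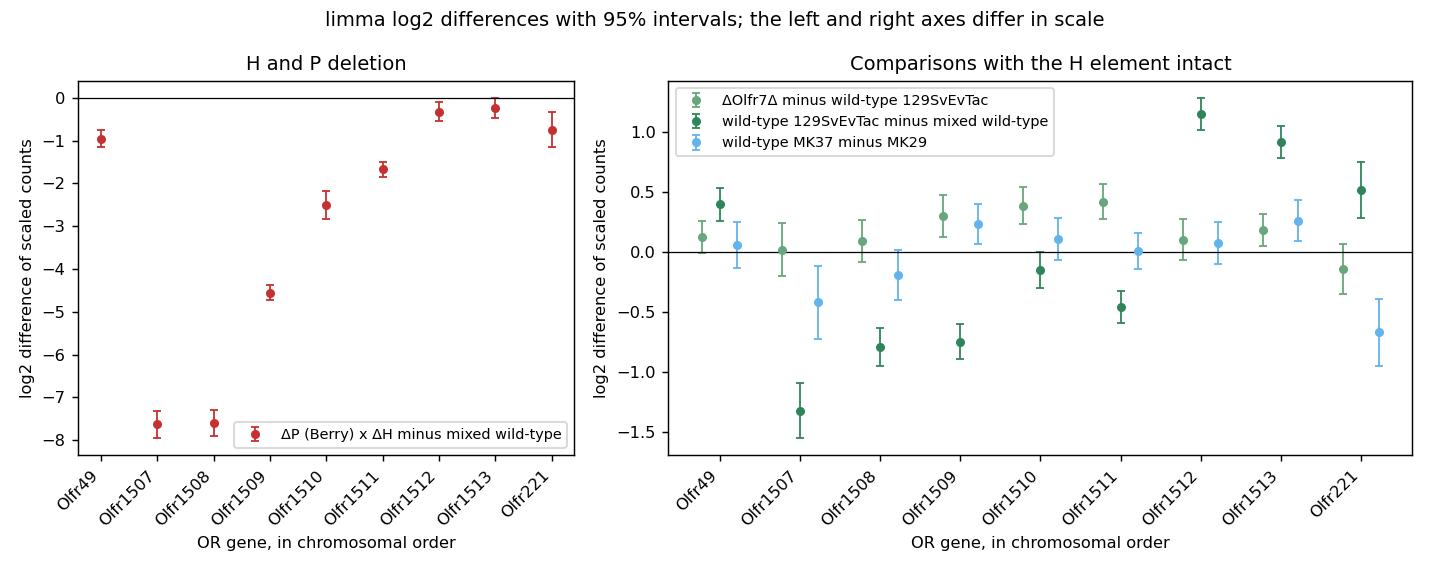
Log2 differences of scaled counts with 95% limma intervals for the 7 genes and the flanking Olfr49 and Olfr221, in chromosomal order, for ΔP (Berry) x ΔH mice (left) and for the 3 comparisons among mice with the H element intact (right, on an expanded scale). On the left the values run from -7.63 at Olfr1507 to -0.24 at Olfr1513, and on the right all lie between -1.32 and 1.15.

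Mice of 1 group also differed among themselves, and in the 24 mice with an intact H element 3 of the 21 pairs within the 7 genes did so together. Olfr1507 and Olfr1508 went up and down together: the correlation of their deviations from the group means was r = 0.92 (Pearson) and rho = 0.90 (Spearman), each with a permutation p of 1.0e-05, the smallest that 100000 resamples can give, and an adjusted p of 0.00477 over the 3815 pairs of a member with any OR gene. Without the 2 mice farthest from the median of Olfr1507, r was 0.88. Olfr1508 was the gene most like Olfr1507 among 548, and Olfr1507 the one most like Olfr1508. Of all pairs, 5.4% had a positive r that passed and 0.262% a negative one.

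Olfr1508 and Olfr1509 were correlated at r = 0.62 (adjusted permutation p = 0.0507) and rho = 0.65 (adjusted permutation p = 0.0391), so that the pair passed by rank and not by Pearson's r. Without the 2 farthest mice, r was 0.53. Olfr1507 and Olfr1509 had r = 0.41 and did not pass. Among the MOR223 genes, Olfr1510 and Olfr1511 had r = 0.74 and rho = 0.68 (adjusted permutation p = 0.0198 and 0.0391), with r = 0.62 without the 2 farthest mice. Olfr1511 and Olfr1513 had r = 0.67 and rho = 0.66 (adjusted permutation p = 0.0315 and 0.0374), with r = 0.52. Over 548 OR genes, a positive r passed with 44 for Olfr1510, 60 for Olfr1511, 28 for Olfr1512 and 48 for Olfr1513. For Olfr1507, Olfr1508 and Olfr1509 these counts were 7, 11 and 11. Olfr1512 and Olfr1513, with the near-identical probes, had r = 0.49 and did not pass (adjusted permutation p = 0.145).

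Between the blocks, r ran from -0.31 (Olfr1507 and Olfr1510) to 0.06 (Olfr1509 and Olfr1510), and no pair passed. The lane scaling enters every value and moves these counts. Of the 21 pairs, 3 passed here, 7 with scaling on the positive controls alone, 1 with the median of ratios and 2 over the 18 wild-type mice only. Of all 3815 pairs of a member with any OR gene, 5.4% had a positive r that passed here. That share was 27.5% with the positive controls alone, 0.734% with the median of ratios and 1.34% over the wild-type mice only. The highest r over the 21 pairs was 0.95, 0.94 and 0.88 in these alternatives.

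**Figure D4:**
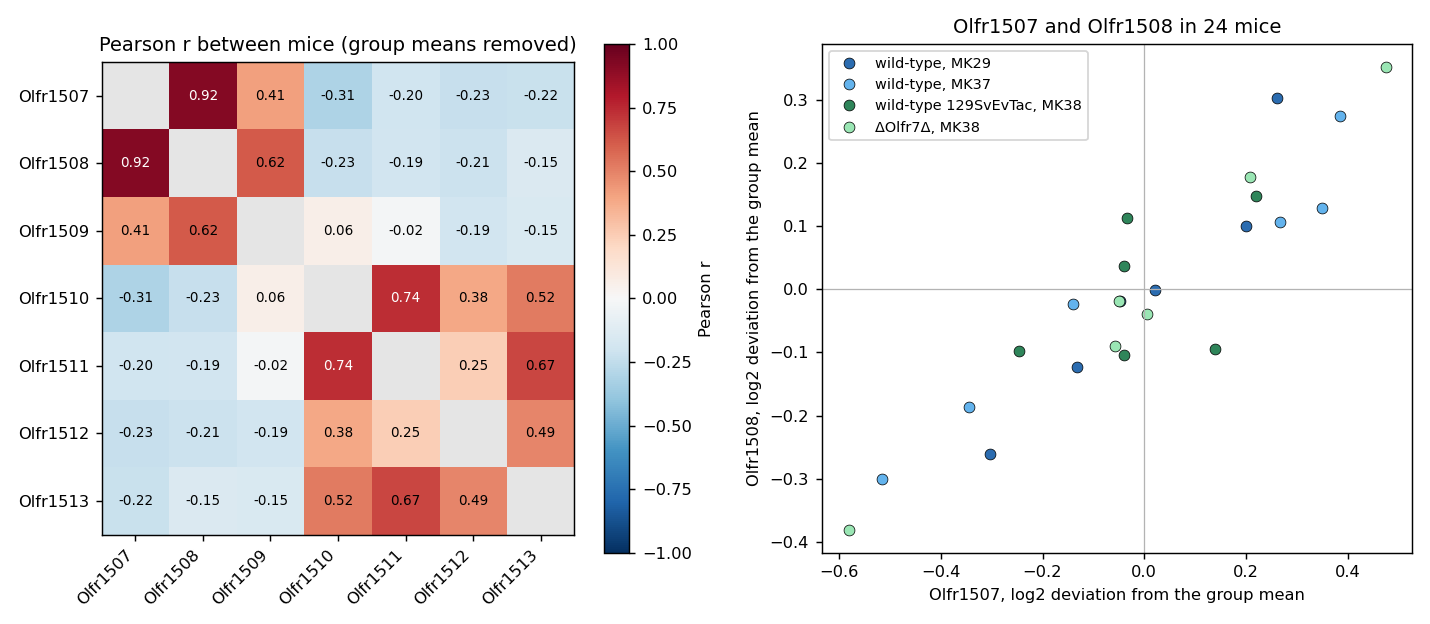
Left, Pearson r between the 7 genes over 24 mice with an intact H element, after the mean of each group was removed. Right, the deviations of Olfr1507 and Olfr1508 from their group means (log2), 1 point per mouse, which rise together with r = 0.92.

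For 5 of the 7 genes the OR gene most like them lay on another chromosome. Beside Olfr1508, the genes most like Olfr1507 were Olfr1276 (r = 0.83) and Olfr281 (r = 0.82), on chromosomes 2 and 15. For Olfr1508 the next were Olfr183 (r = 0.85, chromosome 16) and Olfr1277 (r = 0.80, chromosome 2). For Olfr1509 they were Olfr711 (r = 0.82, rho = 0.87, chromosome 7), Olfr1220 (r = 0.72, chromosome 2) and Olfr729 (r = 0.71, chromosome 14). Olfr711 lies in the cluster by the P element.

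Some genes stood near the top for more than 1 MOR223 gene. Olfr1044 on chromosome 2 was among the 3 genes most like Olfr1510 (r = 0.77) and Olfr1511 (r = 0.80), and Olfr1037, on the same chromosome, among those most like Olfr1511 (r = 0.80) and Olfr1513 (r = 0.84). The others were Olfr139 (r = 0.82, chromosome 11) and Olfr1162 (r = 0.74, chromosome 2) for Olfr1510 and Olfr351 (r = 0.84, chromosome 2) for Olfr1511. For Olfr1512 they were Olfr202 (r = 0.82, chromosome 16), Olfr1043 (r = 0.81, chromosome 2) and Olfr519 (r = 0.75, chromosome 7), and for Olfr1513 also Olfr411 (r = 0.87, chromosome 11) and Olfr1155 (r = 0.83, chromosome 2). These pairs passed at an adjusted permutation p of at most 0.0219 for r and 0.0493 for rho. Over all 548 genes the median r was -0.17 for Olfr1507, -0.15 for Olfr1508 and 0.02 for Olfr1509, and between 0.20 and 0.35 for the MOR223 genes.

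Sex, which is uneven between the groups, was compared over the same 24 mice with group as a covariate. None of the 7 genes differed between males and females, nor did any of the 549 OR genes in limma, with 52 genes (9.47%) at an unadjusted p under 0.05. Olfr1510 was the only one of the 7 among them, lower in males by 0.17 on the log2 scale (adjusted p = 0.296, limma). For Olfr1507 and Olfr1508 the differences were 0.01 and -0.03.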

How the data were processed

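The authors counted RNA of each mouse with the nCounter system of NanoString and deposited raw counts per probe and lane, neither scaled nor background-subtracted. The deposited table mixes these counts with text rows and empty cells and so was handled as another unit, with no count model. Its 8 rows with no gene name were left out. The deposited counts were scaled over all 30 lanes together by the geometric mean of 6 positive controls, then of 5 reference genes. OR genes whose wild-type median was at least 100 after subtraction of the lane background (mean plus 2 SD of 8 negative controls) were tested on log2(scaled count + 1) with limma 3.58.1 (mean-variance trend) in R 4.3.3. Fold changes on this scale understate those of low genes. Calls use a Benjamini-Hochberg adjusted p under 0.05 over all OR genes tested. ΔP (Berry) x ΔH mice were set against 12 wild-type mice as 1 group, as in the study's methods.

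For covariation, deviations from group means were correlated and mice permuted within groups 100000 times, two-sided. Each mouse is its own replicate, with 6 per group. Groups came from strain and genotype labels. Each fit was tested on simulated data. Alternatives were other scalings, background subtraction, a pseudocount of 10, no filter, sex as a covariate, the gene-wise linear model, tTREAT, single wild-type groups and leaving out each mouse.

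Genes named are the 7 members, their measured neighbours, the 5 reference genes and, per member, the 3 informative OR genes with the highest r. The members and lists were chosen with earlier results of these data known. Gene order and subfamilies come from the study's OR naming table, and promoters from RefSeq. Python 3.11.15, numpy 2.4.6 and matplotlib 3.10.9 were used.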

Additional observations from a re-analysis of the deposited data

Results flagged for a closer look

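The 7 genes and their 2 neighbours were checked in each of the 5 groups for a mouse that stands apart, by the gap to the nearest mouse over the range of the group, against Dixon's 95% critical value for 6 mice. Of 45 gene and group combinations, 2 stood out, and chance gives about 1 in 20. Olfr1512 was counted at 857.8 scaled counts in wild-type 129SvEvTac mouse 6, where the other 5 lay between 987.2 and 1040 (gap 0.71 of the range). Without that mouse the difference between wild-type 129SvEvTac and mixed wild-type mice was 1.19 on the log2 scale. Olfr221 was counted at 205.6 in wild-type mouse 3 of MK37, where the others lay between 266.3 and 297.3 (gap 0.662 of the range).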

How the results depend on the processing

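In ΔP (Berry) x ΔH mice, Olfr1507, Olfr1508, Olfr1509, Olfr1510 and Olfr1511 stayed lower and past the threshold under every alternative run, and 5 to 7 of the 7 genes were lower over all of them. The signs and calls between 129SvEvTac and mixed wild-type mice also held for each gene except Olfr1510. OR genes called lower in ΔP (Berry) x ΔH mice numbered 88 with positive controls alone and 22 with tTREAT, against 133. Those called higher numbered 105 with TMM, 123 with the median of ratios and 1 with tTREAT, against 57, so that 47.9% and 54.4% of all calls were higher with TMM and the median of ratios, against 30%. In ΔOlfr7Δ mice, 41 OR genes were lower and 283 higher with positive controls alone, against 67 and 129, and this scaling raised the median of all genes by 0.18. With the median of ratios 102 were lower, and 2 of the 7 genes were higher. Between the mixed wild-type groups, positive controls alone gave 32 OR genes lower and 0 of the 7. TMM gave 114 lower and 108 higher, and 2 and 1 of the 7. The median of ratios gave 119 lower and 95 higher, and 2 and 0 of the 7, and shifted the median of all genes by -0.11. The gene-wise linear model gave 0 and 1 of the 7. Member pairs that covary numbered 7 with positive controls alone and 1 with the median of ratios, where 27.5% and 0.734% of all pairs had a positive r that passed.

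Signs turned only where the change was near 0. In ΔOlfr7Δ mice Olfr1507 changed by -0.0167 with TMM and -0.0338 with the median of ratios, and by -0.0755 to 0.14 when 1 mouse was left out. Between the mixed wild-type groups Olfr1511 changed by -0.0882 with TMM, -0.105 with the median of ratios, -0.00398 with sex as a covariate, and -0.0350 to 0.0458 when 1 mouse was left out. Olfr1512 there changed by -0.0191 with TMM and -0.0355 with the median of ratios. The ratio of Olfr1507 to Olfr1508 in ΔP (Berry) x ΔH mice ran from -0.16 to 0.0775 when 1 mouse was left out. Leaving out 1 mouse gave 0 to 1 of the 7 genes lower and 1 to 2 higher between the mixed wild-type groups. The cause of these differences was not tested. The planned edgeR fit was not run, as the table is not recorded as counts. No paired analysis was possible because the mice carry no numbers that pair them across groups. Signal over background limits Olfr1507 and Olfr1508 in ΔP (Berry) x ΔH mice to bounds.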
